A study of Homo sapiens with 6 samples.

Results

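The transforming growth factor-β (TGF-β) module was examined in renal cell carcinoma cells after knockdown of RNF25, an E3 ubiquitin ligase. The module was defined by gene name, but it was chosen with earlier results of these data known. It holds the ligand genes TGFB1, TGFB2 and TGFB3, the receptor genes TGFBR1, TGFBR2 and TGFBR3, and the signal transducer genes SMAD2, SMAD3 and SMAD4. It also holds TGFBI, an extracellular matrix gene named for its induction by TGF-β. The members are 10 of the 30267 genes in the deposited table. All 10 were among the 16554 genes that passed the filter on low values (a normalised read count of at least 10 in at least 3 libraries). In shRNF25 cells TGFB2 fell to 33.8% and TGFBI to 5.21% of the mean of control cells. TGFB1, TGFBR1 and SMAD3 fell by less, TGFB3 rose, and TGFBR2, TGFBR3, SMAD2 and SMAD4 did not pass the test.

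TGF-β ligands are secreted in a latent complex, in which the growth factor stays bound to its own propeptide until integrins, proteases or thrombospondin release it. The active dimer binds the type II receptor TGFBR2, often presented by the co-receptor TGFBR3 (betaglycan), and TGFBR2 then phosphorylates the type I receptor TGFBR1, a kinase that phosphorylates SMAD2 and SMAD3. These bind SMAD4, enter the nucleus and regulate matrix, cytoskeletal and cell cycle genes, and in carcinoma cells the pathway is known both for growth arrest and for epithelial to mesenchymal change.

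Bulk RNA sequencing had been performed on SW839, a human renal cell carcinoma line, in biological triplicates of 2 groups with 3 libraries each. The shRNF25 group carried a short hairpin RNA against RNF25, and the shControl group, whose library names begin with PLKO but are formed differently in each library, carried the control vector. Hairpins were delivered by lentivirus in this study, so that each group is a population of infected cells, and the hairpin sequence is not given in the sources used here. The treatment text of all 6 samples, controls included, speaks of the shRNF25 plasmid, so that the groups rest on the titles and genotype labels.

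RNF25, the targeted gene, had normalised read counts of 694.2, 533.5 and 536.4 in shControl 1 to 3 and of 214.1, 245.7 and 265.0 in shRNF25 1 to 3. No shRNF25 value reached the lowest shControl value, and the mean fell to 41.1% of control (log2 fold change -1.27, SE 0.150, adjusted p = 0.000585, limma). RNF25 overlaps STK36 on the opposite strand over 11.2% of its exonic bases. STK36 rose (log2 fold change 0.59, adjusted p = 0.0130, limma), and how reads in the overlap were counted is not known. The reads assigned to genes numbered 18647460 to 19943154 a library, and the normalisation factors read from the table ranged from 0.905 to 1.10. Mitochondrial genes took 12.1% of the reads of shControl 1 and between 3.58 and 4.44% of those of the other 5 libraries. Of 10 renal epithelial markers listed, 7 were among the deposited genes, and PAX2, CDH16 and LRP2 were absent. Those present included KRT18, between 15768 and 18790, and PAX8, a renal lineage factor, between 76.7 and 140.3. KRT19 was lower in shRNF25 by less than 1.5-fold (log2 fold change -0.47, adjusted p = 0.0278, limma), and VIM, given at the end, was higher. The fibroblast markers DCN and COL1A2 had 3 reads or fewer in every library. The summed level of the fibroblast markers in the table, most of it COL1A1, was 1129 to 1305 in shControl and 891.2 to 1034 in shRNF25, and of the 3 that were tested none was called by the criteria below, although COL1A1 had an adjusted p of 0.0479 (log2 fold change -0.37, limma). PDGFRA, too low to be tested, had 1.03 to 3.32 in shControl and 6.67 to 10.0 in shRNF25. CA9, a carbonic anhydrase commonly high in clear cell renal carcinoma, was low, with values from 1.85 to 50.7. Handling or sequencing that differed along with the groups cannot be told apart from RNF25 loss.

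The region before the start of TGFB2, the ligand with the largest fall, and of TGFBI, the member with the largest fall, is shown for reference to the results that follow. RefSeq windows (GRCh38.p14) from 250 bases before to 50 bases after a start were found for 10 of 10 members, and the 250 bases before the start are printed, 5′ to 3′ on the plus strand for both genes. The window of TGFB2 is chr1:218345086-218345335 and that of TGFBI is chr5:136028738-136028987, each ending at the base before the RefSeq start, which for TGFB2 lies upstream of the GENCODE gene start given below. Capitals mark CAGAC, the short SMAD-binding box, on either strand.
TGFB2: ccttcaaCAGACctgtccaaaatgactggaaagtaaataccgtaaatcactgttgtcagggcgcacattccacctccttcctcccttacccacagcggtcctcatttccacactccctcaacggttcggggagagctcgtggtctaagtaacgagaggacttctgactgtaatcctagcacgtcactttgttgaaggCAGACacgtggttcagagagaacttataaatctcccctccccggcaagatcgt
TGFBI: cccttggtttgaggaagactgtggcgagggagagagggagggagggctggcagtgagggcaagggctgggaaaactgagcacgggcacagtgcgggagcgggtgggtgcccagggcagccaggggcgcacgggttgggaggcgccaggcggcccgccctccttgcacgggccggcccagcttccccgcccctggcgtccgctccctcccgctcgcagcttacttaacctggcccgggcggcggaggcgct
The TGFB2 sequence holds 2 matches, at bases 243 to 239 and 53 to 49 before the start, and the TGFBI sequence holds none. The box is short and common, since 45.3% of the 35116 windows of all genes held CAGAC on either strand. Windows of 4 of 10 members held it (TGFB2, TGFB3, TGFBR1 and SMAD3), where 13649 of 27305 genes had such a window and the members had 24 windows in all, 8 of them of TGFBR1. The palindrome GTCTAGAC was in 0.202% of all windows and in those of 0 members, and the NF-κB motifs GGGACTTTC or GGGAATTTC were in 0.703% of windows and also in those of 0 members. An AP-1 motif, TGACTCA or TGAGTCA, was in 4.95% of windows and in those of 2 members, TGFBR2 and SMAD3, against 6.05% of genes. A match is a stretch of letters, and binding was not measured.

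**Figure D1:**
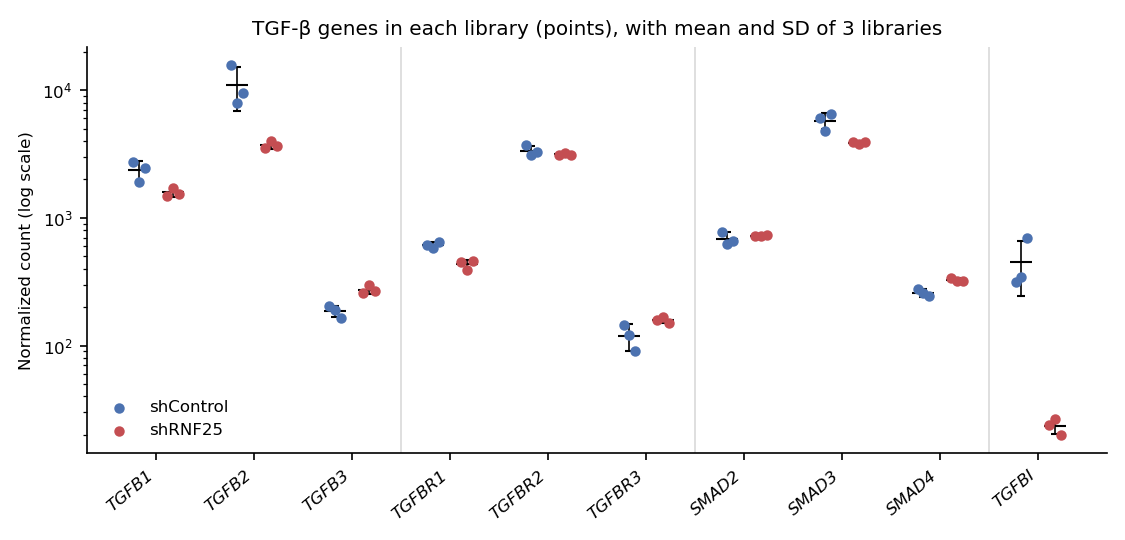
Normalised read count (log scale, reads scaled for library size) of the 10 TGF-β genes in each of the 6 libraries, with points for single libraries and the group mean and SD. TGFB2 and TGFBI show the widest gaps between shControl and shRNF25, and the TGFBR2 and SMAD2 points overlap.

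Of the 10 members, 2 passed the study's criteria of adjusted p below 0.05 with a minimum fold change of 1.5 as lower in shRNF25 (TGFB2 and TGFBI), against 7.10% of all genes tested, or 15.7% in either direction. On the higher side 0 members passed in limma, against 8.65% of all genes tested, while edgeR on reads recovered from the table called 1 (TGFB3) and DESeq2 called 0. With the adjusted p alone, 5 members were lower and 1 was higher, where the background was 10.8% lower and 10.5% higher (21.3% in either direction). The shRNF25 values lay entirely below the shControl values for 5 members and entirely above for 3, against 21.8% and 20.7% of all genes (42.5% in either direction). The median log2 fold change was -0.29 over the members and -0.01 over all genes tested.

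The ligands moved in different directions. TGFB2 (chromosome 1, 218346235 to 218444619, plus strand, GRCh38) had normalised read counts of 15613, 7864 and 9541 in shControl and of 3496, 3991 and 3681 in shRNF25. The groups did not overlap, shRNF25 being the lower, and shControl 1 stood well above the other controls. The mean fell from 11006 ± 4077 to 3723 ± 250.2 (SD, n = 3 each), a 2.96-fold fall (log2 fold change -1.50, SE 0.218, adjusted p = 0.00171, limma), and without shControl 1 the log2 fold change was -1.22. As the libraries are bulk RNA, fewer cells of a type and less RNA per cell cannot be told apart. The 3′ part of TGFB2 overlaps the transcript TGFB2-OT1 on the same strand over 26.6% of its exonic bases. TGFB2-OT1 is not among the deposited genes, and how reads in the overlap were counted is not known. TGFB2-AS1, on the opposite strand, had values between 4.10 and 12.4 in all libraries.

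TGFB1 (chromosome 19, 41301587 to 41353911, minus strand), the ligand most widely expressed in tissues, had counts of 2715, 1907 and 2447 in shControl and of 1489, 1713 and 1542 in shRNF25. The groups did not overlap, although shControl 2 came close to shRNF25 2. The mean fell from 2356 ± 411.3 to 1581 ± 117.1 (n = 3 each), or to 67.1% of control (log2 fold change -0.56, SE 0.142, adjusted p = 0.0218, limma). TGFB1 overlaps HNRNPUL1 on the opposite strand over 6.64% of its exonic bases. HNRNPUL1 had values between 4675 and 7845 and was not called (log2 fold change -0.24, adjusted p = 0.308, limma). How reads in the overlap were counted is not known.

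TGFB3 (chromosome 14, 75958099 to 75982991, minus strand), the least abundant ligand, had counts of 203.4, 188.8 and 165.1 in shControl and of 256.0, 298.3 and 265.9 in shRNF25. It was the ligand with every shRNF25 library above every shControl library, and the mean rose from 185.8 ± 19.3 to 273.4 ± 22.1 (n = 3 each), a 1.47-fold rise (log2 fold change 0.56, SE 0.141, adjusted p = 0.0220, limma).

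Because the ligands moved apart, the make-up of the ligand mRNA pool was computed per kilobase of exonic length. TGFB2 was the largest part in every library, with 70.1 to 77.5% of the summed per-kilobase level in shControl and 56.8 to 57.4% in shRNF25. The share of TGFB1 was 21.4 to 28.6% in shControl and 38.3 to 38.8% in shRNF25. For TGFB3 the share was 1.06 to 1.78% in shControl and 4.35 to 4.45% in shRNF25, or 1.92 to 3.19% and 7.51 to 7.68% with the length of the principal transcript. None of these ranges overlapped between the groups. Within libraries, the ratio of TGFB2 to TGFB1 counts was 5.75, 4.12 and 3.90 in shControl and 2.35, 2.33 and 2.39 in shRNF25. The ratio of TGFB3 to TGFB1 was 0.0749, 0.0990 and 0.0675 in shControl and 0.172, 0.174 and 0.172 in shRNF25. The difference on the log2 scale was -0.94 for the first ratio and 1.12 for the second, and each gave p = 0.10 in a two-sided exact permutation test (n = 3 each), which is the smallest p that 3 libraries against 3 allow (adjusted p = 0.10 over the 4 ratios compared in all).

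**Figure D2:**
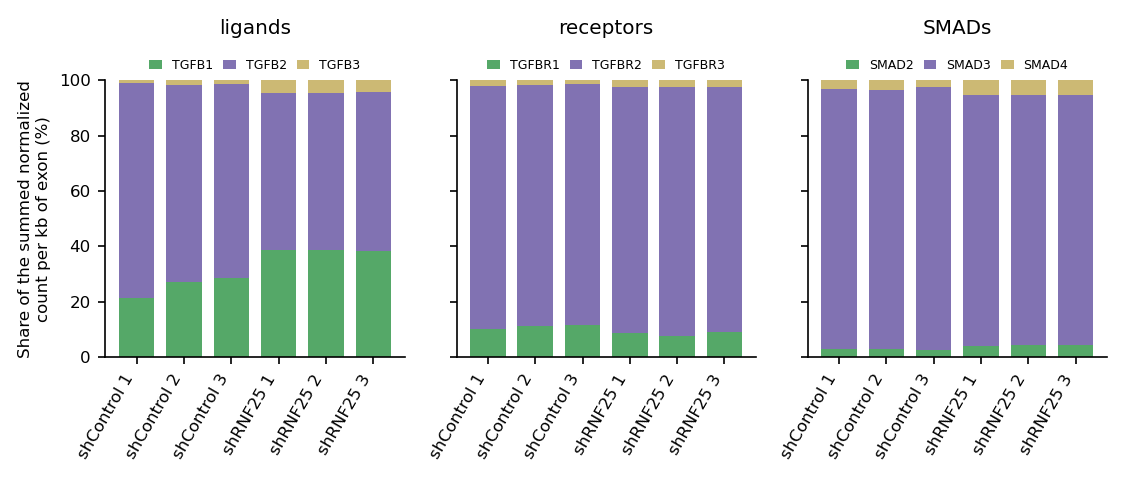
Share (percent) of each gene in the summed per-kilobase level of the ligands, the receptors and the SMADs, stacked for each of the 6 libraries. The TGFB2 part is smaller in the 3 shRNF25 libraries (56.8 to 57.4%) than in the 3 shControl libraries (70.1 to 77.5%), while TGFBR2 and SMAD3 dominate their families in all libraries.

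Among the receptors only TGFBR1 passed the test. TGFBR1 (chromosome 9, 99104038 to 99154192, plus strand), the signal-transmitting type I kinase, had counts of 610.2, 577.7 and 646.5 in shControl and of 450.1, 393.4 and 461.3 in shRNF25. The groups were separated by a clear gap and had a like spread, and the mean fell from 611.4 ± 34.4 to 435.0 ± 36.4 (n = 3 each), to 71.1% of control (log2 fold change -0.49, SE 0.119, adjusted p = 0.0182, limma).

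TGFBR2 (chromosome 3, 30606502 to 30694142, plus strand), the ligand-binding type II kinase, had counts of 3689, 3090 and 3290 in shControl and of 3103, 3214 and 3096 in shRNF25. The groups overlapped, with means of 3356 ± 304.8 and 3137 ± 66.2 (n = 3 each). The log2 fold change was -0.09 with a 95% interval from -0.33 to 0.14 (adjusted p = 0.558, limma), so that changes within that interval were not resolved by 3 libraries a group.

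TGFBR3 (chromosome 1, 91680343 to 91906335, minus strand), the co-receptor that presents TGF-β2 in particular, had counts of 145.9, 120.0 and 90.7 in shControl and of 157.6, 167.2 and 150.6 in shRNF25. All shRNF25 values were above all shControl values, but the controls were spread widely and the log2 fold change of 0.44 (95% interval 0.01 to 0.86) did not pass (adjusted p = 0.133, limma). Without shControl 1 it was 0.60 and passed (adjusted p = 0.0163).

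Per kilobase of exonic length, TGFBR2 mRNA made up 87.0 to 88.1% of the summed level of the 3 receptors in shControl and 88.6 to 89.9% in shRNF25. The share of TGFBR1 was 10.0 to 11.7% in shControl and 7.56 to 9.07% in shRNF25, and that of TGFBR3 was at most 1.88% in shControl and 2.33 to 2.53% in shRNF25, or at least 2.77% and 4.92 to 5.33% with the shortest principal transcript. The ratio of TGFBR1 to TGFBR2 counts was 0.165, 0.187 and 0.197 in shControl and 0.145, 0.122 and 0.149 in shRNF25, a log2 difference of -0.40 (p = 0.10, two-sided exact permutation test, n = 3 each).

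The receptor-regulated SMADs differed from each other. SMAD3 (chromosome 15, 67063763 to 67195195, plus strand), which binds DNA directly, had counts of 6055, 4824 and 6458 in shControl and of 3924, 3820 and 3904 in shRNF25. The shRNF25 libraries were close together and all below the controls, and the mean fell from 5779 ± 851.1 to 3883 ± 55.6 (n = 3 each), to 67.2% of control (log2 fold change -0.56, SE 0.124, adjusted p = 0.0124, limma).

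SMAD2 (chromosome 18, 47808957 to 47931146, minus strand), its close relative, had counts of 780.4, 619.7 and 657.3 in shControl and of 722.6, 717.6 and 734.0 in shRNF25. The shRNF25 values lay inside the range of the controls. The log2 fold change was 0.09 with a 95% interval from -0.18 to 0.36 (adjusted p = 0.645, limma), and SMAD2 shares 1.12% of its 50-base words with other genes.

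SMAD4 (chromosome 18, 51028394 to 51085045, plus strand), the common partner of both, had counts of 277.5, 256.5 and 242.8 in shControl and of 339.9, 319.5 and 318.4 in shRNF25. Every shRNF25 library was above every shControl library, with means of 258.9 ± 17.4 and 325.9 ± 12.1 (n = 3 each). The log2 fold change of 0.33 (SE 0.122) did not pass (adjusted p = 0.0846, limma), although it did without shControl 1 (0.38, adjusted p = 0.0163) and after rescaling on abundant genes (0.40, adjusted p = 0.0447). SMAD4 overlaps AC091551.1 on the same strand over 7.37% of its exonic bases.

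The ratio of SMAD3 to SMAD2 counts was 7.76, 7.78 and 9.83 in shControl and 5.43, 5.32 and 5.32 in shRNF25, a log2 difference of -0.65 with no overlap (p = 0.10, two-sided exact permutation test, n = 3 each). Per kilobase of exonic length SMAD3 was the main SMAD in every library, with 93.5 to 95.1% of the summed level in shControl and 90.4 to 90.6% in shRNF25. The order of SMAD2 and SMAD4 depended on the transcript length used, since SMAD2 has principal transcripts of 12075 and 34526 bases, and no order is given for them.

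TGFBI (chromosome 5, 136028895 to 136063818, plus strand), which encodes a secreted matrix protein that binds integrins and collagen, had counts of 317.3, 343.7 and 690.7 in shControl and of 23.7, 26.8 and 20.0 in shRNF25. All shRNF25 libraries were far below the lowest control, and shControl 3 stood above the other controls. The mean fell from 450.6 ± 208.4 to 23.5 ± 3.39 (n = 3 each), a 19.2-fold fall (log2 fold change -4.12, SE 0.286, adjusted p = 3.61e-05, limma). Without shControl 3 the log2 fold change was -3.77, and the lowest library still held 21 reads.

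**Figure D3:**
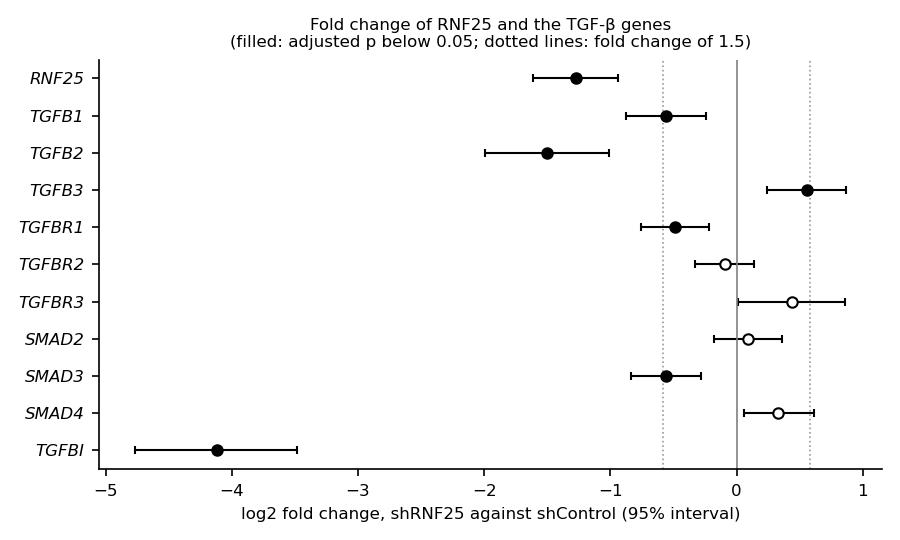
Log2 fold change (shRNF25 minus shControl) of RNF25 and the 10 TGF-β genes with 95% intervals, filled points marking an adjusted p below 0.05 and dotted lines a fold change of 1.5. TGFBI (-4.12), TGFB2 (-1.50) and the targeted gene RNF25 (-1.27) lie beyond the dotted line, and the intervals of TGFBR2 and SMAD2 include 0.

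TGFB1, TGFB3, TGFBR1 and SMAD3 passed the adjusted p in 13 of 16 alternative analyses. They each failed when any 1 of the shRNF25 libraries was left out, with adjusted p values from 0.0597 to 0.111 for TGFB1, 0.0754 to 0.128 for TGFB3, 0.0658 to 0.116 for TGFBR1 and 0.0642 to 0.0689 for SMAD3 (limma). At the study's criteria, leaving out shControl 2 added TGFB1 and SMAD3 to the lower members (4 in all), and leaving out shControl 1 gave 2 higher members, TGFB3 and TGFBR3. TGFB2 and TGFBI passed in 16 of 16, with a log2 fold change between -1.71 and -1.22 for TGFB2 and between -4.33 and -3.77 for TGFBI. The members varied more among the controls. Their coefficient of variation was 5.63 to 46.3% in shControl (median 13.5%) and 1.16 to 14.4% in shRNF25 (median 5.98%), and it was larger in shControl for 9 of 10 members, the exception being TGFBR1. Among the controls, 7 members were highest in shControl 1, the library with the high mitochondrial share, and 3 in shControl 3 (TGFBR1, SMAD3 and TGFBI). The part of the mitochondrial share in these values was not tested.

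Genes that store and release the ligands were described from a list of 27, of which 18 were tested. Of these, 5 were called lower and 3 higher (27.8% and 16.7% of those tested, against 7.10% and 8.65% of all genes), with a median log2 fold change of -0.25 beside -0.01 over all genes. THBS1, thrombospondin-1, which can release TGF-β1 from its propeptide, had counts of 52248, 63256 and 60772 in shControl and of 14708, 15817 and 15662 in shRNF25. Every shRNF25 library was far below the lowest control, and THBS1 fell with a log2 fold change of -1.93 (SE 0.117, adjusted p = 1.73e-05, limma). MMP9, a gelatinase able to cleave latent TGF-β, had counts of 189.0, 171.3 and 153.3 in shControl and of 11.8, 22.2 and 23.8 in shRNF25, a log2 fold change of -3.14 (adjusted p = 0.000122). MMP14, a membrane-bound protease, fell from 7628 ± 267.0 to 3153 ± 176.5 (n = 3 each, log2 fold change -1.28, adjusted p = 6.52e-05, limma).

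The other genes called lower in that list were ITGB3 (-1.07, adjusted p = 0.0105) and ITGB6 (-1.02, adjusted p = 0.0169, limma), integrin β chains that bind the latent complex, named here after their values were seen. Both calls were lost once any 1 of the shRNF25 libraries was left out (adjusted p up to 0.0514 for ITGB3 and 0.0722 for ITGB6). Of the genes called higher, LTBP1, the latent TGF-β binding protein that tethers the complex to the matrix, had counts of 841.2, 853.7 and 1110 in shControl and of 2142, 2219 and 2317 in shRNF25. It rose with a log2 fold change of 1.26 (SE 0.129, adjusted p = 0.000284, limma). Its relatives LTBP2 and LTBP3, named after their values were seen, had log2 fold changes of 0.10 and -0.14 and did not pass (adjusted p = 0.589 and 0.610). FBN2, a microfibril protein, had counts of 4380, 4863 and 4319 in shControl and of 9580, 9267 and 9720 in shRNF25 (log2 fold change 1.08, adjusted p = 0.000175, limma). PCSK6, a proprotein convertase, was higher at a low level, with values of 8.84, 3.08 and 6.48 in shControl and from 14.8 to 26.4 in shRNF25 (log2 fold change 1.66, adjusted p = 0.0192, limma). Every control value of PCSK6 was below 10, so it passed the filter only through shRNF25, where it was high. Its p-value is therefore description only, and it is counted among the 3 called higher.

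**Figure D4:**
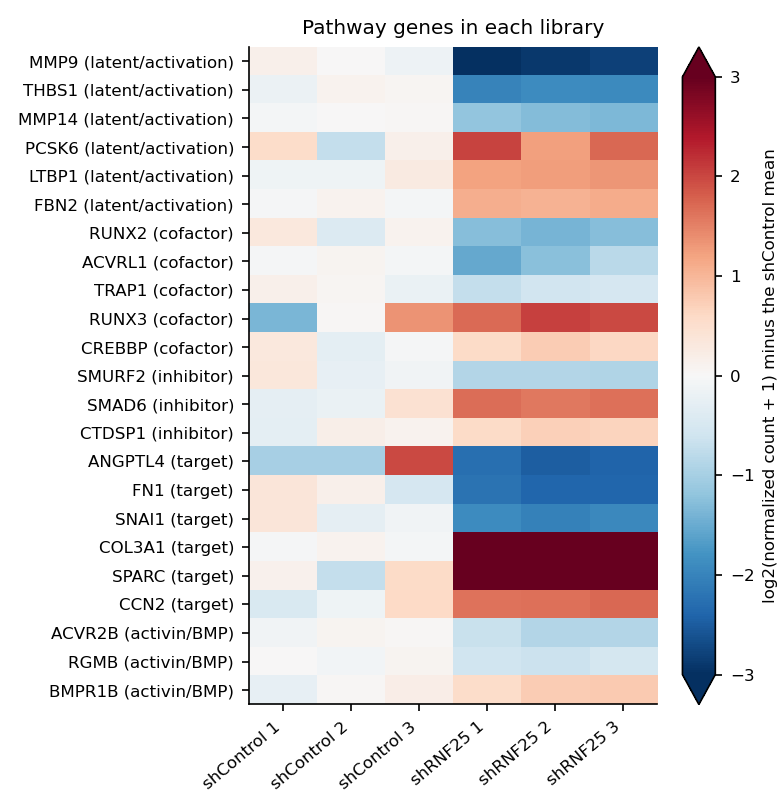
Heat map of the 23 named genes of the pathway lists in the 6 libraries, as log2(normalised count + 1) minus the shControl mean, with the colour scale capped at 3 in either direction. MMP9, FN1, THBS1 and SNAI1 are low and COL3A1, SPARC, CCN2 and SMAD6 are high in all 3 shRNF25 libraries, and ANGPTL4 differs among the controls.

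Of 27 receptor and SMAD cofactors 26 were tested, and 3 were called lower and 2 higher (11.5% and 7.69%, close to the 7.10% and 8.65% of all genes). Their median log2 fold change was 0.02, and 2 were lower without TRAP1, described below. RUNX2, a transcription factor that binds SMADs, had counts of 1021, 620.7 and 879.6 in shControl and of 340.8, 311.2 and 340.3 in shRNF25, with no overlap (log2 fold change -1.31, adjusted p = 0.00122, limma). Its relative RUNX3 had counts of 4.42, 13.3 and 34.5 in shControl and of 44.6, 57.3 and 54.3 in shRNF25. RUNX3 rose (log2 fold change 1.91, adjusted p = 0.0403), but the controls differed widely, the value was 1.23 without shControl 1 and 2.58 without shControl 3, and it passed in 10 of 15 alternatives. ACVRL1, another type I receptor, was lower at a very low level (12.2, 13.3 and 11.9 against 3.64, 4.62 and 6.67, adjusted p = 0.0367, limma) and passed in 5 of 12 alternatives. As every shRNF25 value was below 10, ACVRL1 passed the filter only through shControl, where it was high. Its p-value is therefore description only, and it is counted among the 3 called lower. TRAP1, here the gene of a mitochondrial chaperone whose symbol was once also used for a receptor-associated protein, had a log2 fold change of -0.59 (adjusted p = 0.00818, or 0.0610 without shRNF25 1, limma). TGFBRAP1, that receptor-associated protein, was named after its value was seen and rose by less than 1.5-fold (log2 fold change 0.43, adjusted p = 0.0197, limma). CREBBP, a SMAD co-activator, had one of 0.66 (adjusted p = 0.0156, limma) that no longer passed once any 1 of the shRNF25 libraries was left out (adjusted p 0.0609 to 0.0822).

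Among inhibitors and feedback genes, 24 of 25 were tested, 1 was called lower and 2 higher (4.17% and 8.33%, no more than the 7.10% and 8.65% of all genes), with a median log2 fold change of -0.10. SMURF2, a ubiquitin ligase that targets SMADs and receptors for degradation, had counts of 5624, 3715 and 4133 in shControl and of 2390, 2414 and 2359 in shRNF25. The shRNF25 libraries were nearly equal and below all controls (log2 fold change -0.89, adjusted p = 0.00353, limma). SMAD6, an inhibitory SMAD that acts mainly on the BMP branch, had counts of 406.8, 422.7 and 672.4 in shControl and of 1551, 1467 and 1541 in shRNF25, and rose with a log2 fold change of 1.64 (SE 0.183, adjusted p = 0.000456, limma). CTDSP1, a phosphatase that acts on SMADs, rose by 0.65 (adjusted p = 0.00965), but not past the threshold without shRNF25 2 or 3 (adjusted p = 0.0590 and 0.0546, limma). SMAD7, the inhibitory SMAD of the TGF-β branch and a direct SMAD3 target, was examined after its value was seen. It had counts of 33.2, 33.9 and 57.2 in shControl and of 58.3, 38.8 and 58.1 in shRNF25, and did not pass (log2 fold change 0.34, adjusted p = 0.418, limma).

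Genes commonly used as SMAD targets were lower more often than higher. Of 60 listed genes 51 were tested, 20 were called lower and 7 higher (39.2% and 13.7%, against 7.10% and 8.65% of all genes), and the median log2 fold change was -0.45. Many of them are also known targets of NF-κB, hypoxia or YAP signalling, and the list was not tested as a set. FN1, fibronectin, had counts of 56278, 49268 and 30895 in shControl and of 9437, 8450 and 8539 in shRNF25. All shRNF25 libraries were far below the lowest control (log2 fold change -2.32, SE 0.201, adjusted p = 0.000130, limma). SNAI1, a repressor of epithelial genes, had counts of 440.0, 281.1 and 318.4 in shControl and of 91.1, 83.1 and 87.7 in shRNF25, and fell with a log2 fold change of -1.95 (adjusted p = 0.000178, limma).

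ANGPTL4, a secreted lipase inhibitor, had counts of 448.8, 452.5 and 3550 in shControl and of 185.9, 160.7 and 169.7 in shRNF25. Its log2 fold change of -2.38 (adjusted p = 0.0324, limma) moved with shControl 3, without which it was smaller and passed (-1.39, adjusted p = 0.000535), and it was -3.10 with DESeq2 and -3.08 with edgeR. It no longer passed once any 1 of the shRNF25 libraries was left out (adjusted p 0.0971 to 0.104).

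Among the SMAD target genes called higher, SPARC, a collagen-binding matricellular protein, had counts of 9.95, 5.13 and 14.0 in shControl and of 137.6, 110.8 and 108.7 in shRNF25 (log2 fold change 3.57, adjusted p = 0.000167, limma). COL3A1, a fibrillar collagen, rose from 5.69 ± 0.406 to 162.3 ± 33.7 (n = 3 each, log2 fold change 4.59, or 3.95 with a pseudocount of 5, adjusted p = 8.89e-06, limma). Every control value of COL3A1 was below 10, so it passed the filter only through shRNF25, where it was high. Its p-value is therefore description only, and it is counted among the 7 called higher. CCN2, connective tissue growth factor, had counts of 572.6, 713.1 and 1185 in shControl and of 2425, 2474 and 2580 in shRNF25. It rose with a log2 fold change of 1.67 (adjusted p = 0.00125, limma), whereas its relative CCN1, named after its value was seen, fell from 28135 ± 1755 to 13958 ± 333.2 (n = 3 each, log2 fold change -1.01, adjusted p = 0.000302, limma).

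**Figure D5:**
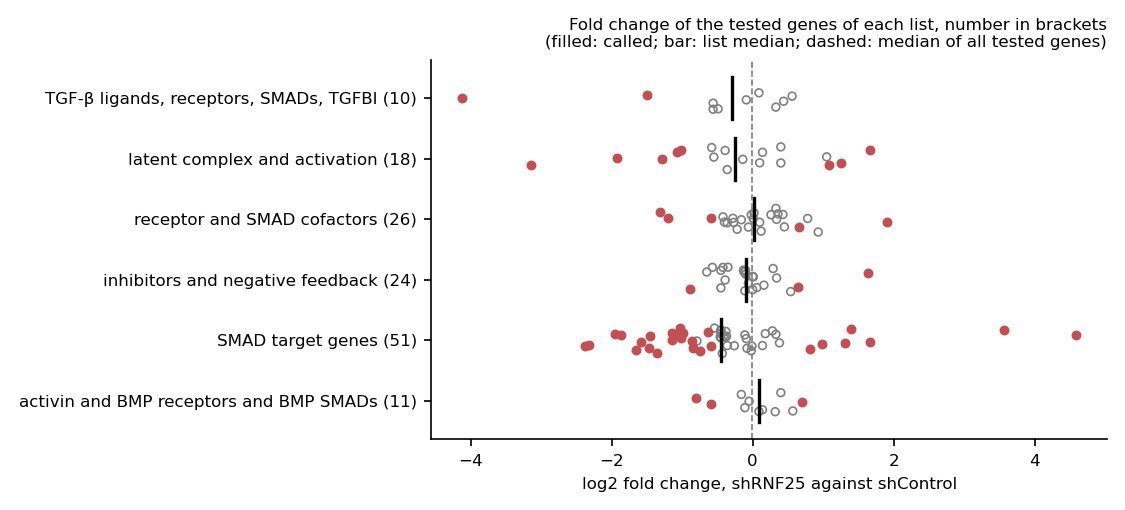
Log2 fold change (shRNF25 minus shControl) of each tested gene in the TGF-β module and in the 5 pathway lists, 1 point a gene, with the median of each list. Medians lie between -0.45 (SMAD target genes) and 0.09 (activin and BMP receptors and SMADs).

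The parallel activin and bone morphogenetic protein (BMP) branches share SMAD4 and the type II receptor logic. Of 15 genes 11 were tested, 2 were called lower and 1 higher (18.2% and 9.09%, against 7.10% and 8.65% of all genes), and the median log2 fold change was 0.09. ACVR2B, an activin type II receptor, had counts of 207.8, 239.1 and 228.8 in shControl and of 141.2, 122.8 and 121.1 in shRNF25, and fell with a log2 fold change of -0.81 (SE 0.142, adjusted p = 0.00431, limma). RGMB, a BMP co-receptor, fell from 810.3 ± 46.7 to 539.1 ± 23.7 (n = 3 each, log2 fold change -0.59, adjusted p = 0.00553, limma). BMPR1B, a BMP type I receptor, had counts of 95.1, 115.9 and 128.4 in shControl and of 165.8, 191.2 and 193.5 in shRNF25, and its log2 fold change of 0.70 (adjusted p = 0.0161, limma) no longer passed once any 1 of the shRNF25 libraries was left out (adjusted p 0.0517 to 0.0914).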

How the data were processed

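RNA from 3 shRNF25 and 3 shControl libraries of SW839 was analysed. The authors deposited 1 table of normalised read counts, a signal of reads scaled for library size, for 30267 genes. According to the methods, RNA was depleted of ribosomal RNA and a stranded kit was used. The submitters' processing notes name fastp, HISAT2, HTSeq and GRCh38, and the annotation and the strand setting of the counting are not given in the sources used here. Besides the overlaps given above, TGFB3 and SMAD3 overlap genes on the opposite strand over 3.32% and 2.00% of their exonic bases. Within each library the values came in equal steps, and dividing by the step gave back whole reads for 100% of values (tolerance 0.001 reads).

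Values were used without further scaling, as log2(value + 1), so that fold changes of genes with low values are understated. The filter asked for a value of 10 or more in 3 or more libraries (16554 genes passed). Groups were compared over all of them with limma 3.58.1 (trend, no covariates) in R 4.3.3, with Benjamini-Hochberg adjusted p-values, and a gene was called at adjusted p below 0.05 with a minimum fold change of 1.5 (1175 lower, 1432 higher). The study's own test, DESeq2 (1.42.0 here), and edgeR 4.0.16 were run on the recovered reads as alternatives (1133 lower and 1525 higher with edgeR, 1220 and 1414 with DESeq2). Other alternatives changed the pseudocount, filter, scaling, weights and threshold, added a replicate block or left out 1 library. Standard errors are limma's moderated ones, and ± gives the SD of 3 libraries. Fits were also run on simulated counts with the same fixed dispersion for every gene and in both groups. The changed genes were drawn only from genes above a minimum mean. There limma recovered 98 of 100 genes changed by a log2 of 1 at the adjusted p alone, with 9 false calls. The spread of the members differs between genes and groups here, with a coefficient of variation of up to 46.3% in shControl, and some named genes are low. That outcome therefore need not hold for these libraries. Single ratios were compared with two-sided exact permutation tests in scipy 1.17.1.

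The members and the pathway lists were chosen with earlier results of these data known. Named genes are the 10 members, RNF25 and, in each of 5 lists, up to 3 called genes with the largest log2 fold change in each direction. List genes absent from the table (LRRC32, MMP2, FMOD, POSTN, NOX4 and TDGF1) were not analysed here. Gene positions and exonic lengths came from GENCODE release 29 (GRCh38) and promoter windows from RefSeq (GRCh38.p14). A planned comparison of protein sequences was not run.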

Additional observations from a re-analysis of the deposited data

How the results depend on the processing

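Counts of called genes moved with the threshold and with single libraries. With the adjusted p alone, 1785 genes were lower, as were 5 members and 5 inhibitors, and 1 member was higher. With a minimum fold change of 2, 513 genes were lower and 893 higher, and in the lists 1 cofactor was higher, 0 inhibitors were lower and 1 higher, and 0 activin and BMP genes were lower and 0 higher. A minimum of 50, which left 12755 genes to test, gave 898 genes and 1 cofactor as higher, and no filter gave 1 cofactor as higher. edgeR called 1 member higher and 1 activin and BMP gene lower, as did rescaling on abundant genes. DESeq2 gave 1 cofactor, 2 inhibitors and 1 activin and BMP gene as lower. Library weights gave 2 inhibitors as lower. A pseudocount of 5 and quantile normalisation each gave 1 activin and BMP gene as lower. Leaving out 1 library at a time gave 783 to 1208 lower and 597 to 1712 higher genes, 2 to 4 and 0 to 2 members, 3 to 7 and 2 to 5 latent complex genes, 1 to 2 and 0 to 3 cofactors, 1 to 2 and 1 to 3 inhibitors, 17 to 23 and 5 to 8 SMAD targets, and 1 to 2 and 0 to 1 activin and BMP genes. The lowest counts over all genes, 783 and 597, came without shRNF25 1, and those without shRNF25 2 or 3 were 657 and 662 higher genes. Latent complex genes lower numbered 3 without shRNF25 2 or 3 and 7 without shControl 2, and 5 were higher without shControl 3, and among the cofactor, inhibitor and activin and BMP lists removal of any library moved at least 1 count. Of 252 such counts 198 stayed within 1.5 times the reported one, and the cause of the others was not tested. Among the single members, the log2 fold change of TGFBR2 turned to 0.04 under quantile normalisation, with neither value past the threshold.

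The replicate numbers did not pair the libraries, since the deviations of same-numbered libraries from their group means correlated at -0.0638, -0.0874 and 0.0471. A replicate block gave 1193 lower and 1398 higher genes, 2 inhibitors as lower and 2 and 0 members. In no library did these deviations correlate best with those of the same-numbered library of the other group. Libraries held 18647460 to 19943154 reads on genes, and the lowest library of ACVRL1 held 4 reads and that of PCSK6 held 3.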

Other observations

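The summed endothelial markers were 496.3 to 698.3 in shControl and 495.0 to 646.9 in shRNF25. Within them CDH5, the cadherin of endothelial junctions, had normalised read counts of 73.0, 102.6 and 198.6 in shControl and of 3.64, 8.31 and 5.72 in shRNF25 and fell (log2 fold change -4.12, adjusted p = 0.000213, limma). Every shRNF25 value of CDH5 was below 10, so it passed the filter only through shControl, where it was high. Its p-value is therefore description only. KDR, a VEGF receptor, had counts of 26.5, 29.8 and 17.3 in shControl and of 88.4, 81.3 and 83.9 in shRNF25 and rose (log2 fold change 1.78, adjusted p = 0.00116, limma). The leukocyte markers summed to 16.2 to 22.6 in shControl and 11.4 to 22.8 in shRNF25, with CD3E and CD68 at 3 reads or fewer in every library. Of the 6 renal epithelial markers tested VIM alone was called, with counts of 447.7, 415.5 and 202.9 in shControl and of 803.7, 881.9 and 810.2 in shRNF25 (log2 fold change 1.31, adjusted p = 0.00805, limma).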
